A study of Scophthalmus maximus with 8 samples.

Results

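The regions described here are stretches of turbot chromatin with a reproducible accessibility peak in post-metamorphic juveniles at 37dph (days post hatching) and with none at the earlier stages studied. They were chosen by the measured peak lists themselves. Peaks of 3dpf (days post fertilization), 15dph, 23dph and 37dph that overlapped by at least 1 bp were joined into regions, and a region was taken when it held a 37dph peak and no peak of another stage. This gave 5345 regions, 12.1% (95% Wilson interval 11.8 to 12.4) of the 44042 regions open at 37dph and 4.68% of the 114193 regions of all stages together (the atlas). Each of the 5345 regions held exactly 1 peak, so its width and strength are those of that peak. The absence of a peak means that none was called reproducibly, and low accessibility below the calling limit cannot be told apart from closed chromatin.

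Accessibility had been profiled by ATAC-seq, in which the transposase Tn5 cuts exposed DNA and leaves sequencing adapters there. The 8 samples were 2 biological replicates from each of 4 stages of turbot (*Scophthalmus maximus*), for which the labels name no treatment or genotype. They came from whole embryos of the phylotypic stage at 3dpf, larvae before metamorphosis at 15dph, larvae at its climax at 23dph and juveniles past it at 37dph. Larvae and juveniles were processed without the hindmost part of the body, from the cloaca on, so the sampled material differs between 3dpf and the later stages. By the study's methods, embryos were also freed of the chorion with pronase. Digestion of the tissue into cells with collagenase took longer at each later stage and longest at 37dph. Its part in the differences cannot be told apart from that of stage. All samples were mixtures of many tissues, in which accessibility in a small share of the cells and a weak signal in many cells cannot be told apart. Both replicates of a stage share 1 deposited list, so no spread between replicates and no test between stages could be had. Intervals on shares and medians cover counting error over regions only, and regions are not replicates of a stage.

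Turbot is a flatfish. Thyroid hormone drives its metamorphosis by binding nuclear receptors that switch target genes on or off, and larval tissues such as muscle, gut and blood are replaced or rebuilt in their adult form. Accessible chromatin marks promoters and enhancers. In vertebrates, promoters of widely used genes tend to be accessible in most tissues and at most times, while enhancers far from a promoter are more often restricted to a cell type or stage. Sites that appear after metamorphosis are therefore of interest as possible switches of the juvenile programme. Genes and DNA sequence around the regions were not analysed here, so the regions are named by their position on the assembly ASM1334776v1, counted from 1.

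The 37dph-only regions were mostly weak peaks. Their median fold enrichment over the local background, as the peak caller gave it, was 3.69 (interquartile range 3.36 to 4.06), compared with 4.94 (4.09 to 6.11) for the 40903 other 37dph peaks. Their median −log10 p was 10.02 against 17.6. The reproducibility of a peak was expressed as its global IDR (irreproducible discovery rate). It estimates the share of irreproducible calls among peaks ranked at least as high, from how well their ranks match between the replicates. A global IDR of at most 0.01 was met by 1126 of the 5345 regions, 21.1% (19.99 to 22.2), and by 73.7% (73.3 to 74.1) of the other 37dph peaks. These values come from the calls that also chose the regions, so they are given as a description.

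Strength followed the number of stages at which a region was open. The median −log10 p of the 37dph peak was 10.02 with no other stage, 11.3 with 1 other stage, 12.8 with 2 and 20.5 with all 3. Among the regions open at 37dph and a single other stage, those shared with 3dpf had a median of 10.7, those shared with 23dph 11.5 and those shared with 15dph 12.1. The 37dph-only regions thus lay at the low end of this order, next to the regions shared with the embryo alone. Even so the range was wide, and −log10 p ran between 2.48 and 36.4 over the 5345 regions.

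**Figure D1:**
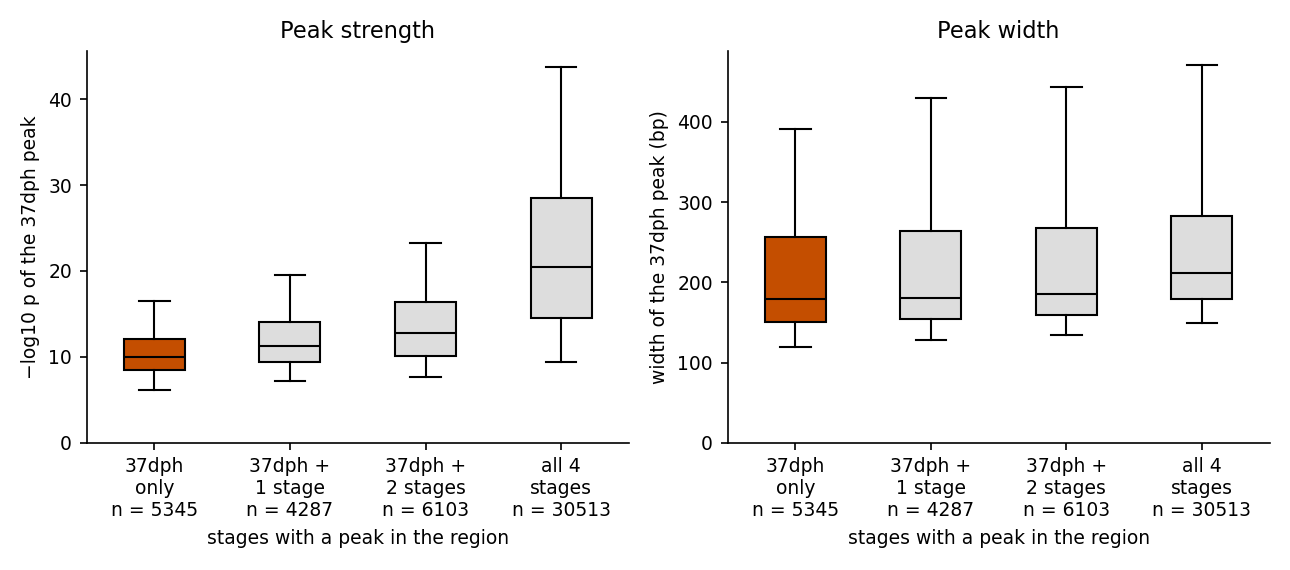
Box plots of the −log10 p (left) and the width in bp (right) of the 37dph peak, by the number of stages with a peak in the region; boxes show the interquartile range with the median, and whiskers the 5th and 95th percentiles. The median −log10 p is 10.02 in 37dph-only regions and 20.5 in regions open at all 4 stages, and the median widths are 179 and 212 bp.

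The 37dph list was divided by −log10 p into 10 classes of about equal size. The strongest class held 1 of the 37dph-only peaks and the next none. The share then increased with every further class, from 0.478% in class 3 over 4.20% in class 5 and 13.2% in class 7 to 39.0% in the weakest, where 1803 of 4621 peaks were 37dph-only. Comparable regions of the other stages leaned to the weak end of their lists as well. The weakest 10% of the own list held 33.8% of the 37dph-only peaks, 36.0% of the 15dph-only peaks and 40.7% of the 23dph-only peaks.

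The regions were narrow, with a median width of 179 bp (interquartile range 150 to 257), and 58.7% of them were under 200 bp wide. The other 37dph peaks had a median of 206 bp (173 to 280), and 46.1% of them were under 200 bp. Only 65 of the 5345 regions were wider than 500 bp, 1.22%, against 3.46% of the other 37dph peaks. Part of this gap went with strength, as the other 37dph peaks of the strongest class had a median of 276 bp. Within the same class the medians were closer. In the weakest class they were 184 bp for 37dph-only peaks and 193 bp for the others, and in class 6 they were 172 and 184 bp. The 37dph-only peaks had the lower median in each of the 8 classes that held at least 20 of them, and came closest to the others in class 7, with 178 and 181 bp. Summits lay near the middle of the peak, at a median of 12 bp from the centre in the 37dph-only peaks and 11.5 bp in the others.

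**Figure D2:**
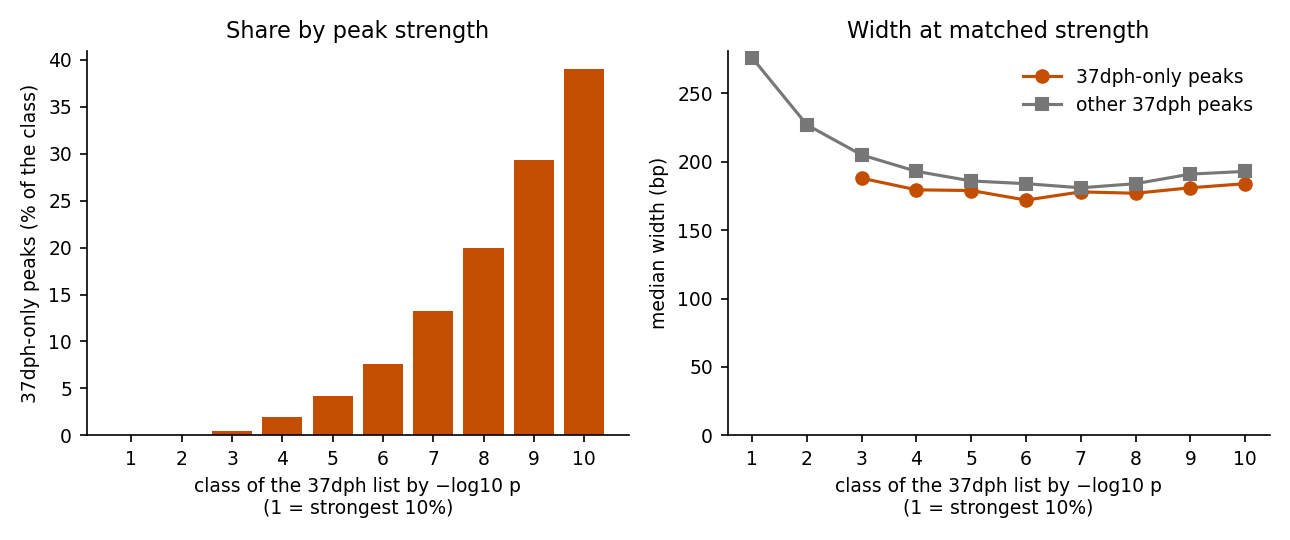
Left, the share of peaks in each of 10 classes of the 37dph list that were 37dph-only, with class 1 holding the highest −log10 p; right, the median width in bp in the same classes, of 37dph-only peaks (classes with at least 20 of them) and of other 37dph peaks. The share reaches 39.0% in the weakest class, and the 37dph-only medians lie at 172 to 188 bp, below those of the other peaks of the same class.

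Against the stage-only regions of the neighbouring stages, the 37dph-only set also had the lowest median width. The median width was 179 bp for 37dph-only, 246 bp for 15dph-only (5649 regions) and 222 bp for 23dph-only (3073 regions). Peaks of the whole 37dph list were narrow too, with a median of 204 bp against 255 bp at 15dph and 238 bp at 23dph, so the ratio to the rest of the own list is the more comparable value. It was 0.869 for 37dph-only, 0.961 for 15dph-only and 0.929 for 23dph-only. Widths can depend on the depth of the libraries. By the read totals in the study's sequencing summary, both juvenile libraries were deeper than every library of the earlier stages, and the part of depth in the differences between stages, counts and distances included, was not tested.

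A few 37dph-only regions stood well above this background. The strongest lay on chromosome 12 from 15225208 to 15225459, a 252 bp peak enriched 7.05-fold, with a −log10 p of 36.4 and a global IDR of 1e-05, the smallest value the lists hold. It ranked 3614 of 46248 peaks. A region open at all stages (always-open), from 15223996 to 15224590, ended 617 bp before it, and the next 37dph-only region was 10106 bp away. It was therefore a 37dph peak called apart from a nearby region that held a peak at every stage studied.

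The next strongest was on chromosome 13 from 13202833 to 13203020, enriched 5.86-fold with 25.9 as its −log10 p. The third, on chromosome 14 from 21818450 to 21818623, was enriched 6.04-fold with 24.9. A clear step separated the first of these regions from all the others, since the second ranked only 9921 in the list.

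The 10 strongest regions had widths of 166 to 469 bp, with a median of 196.5 bp, and fold enrichments of 5.15 to 7.05. They lay on 6 chromosomes, and 4 of them on chromosome 22. These were 10574362 to 10574815, 8702418 to 8702593, 5213713 to 5213917 and 8842977 to 8843161, with −log10 p of 24.9, 24.7, 23.9 and 23.9. Chromosome 22 held 174 of the 5345 regions in all, and its place among the strongest rests on these 4 peaks.

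Of the 10 strongest regions, 4 lay within 1000 bp of a region open at all stages, and 4 within 100 bp of a peak of another stage. Over all 37dph-only regions these shares were 17.7% and 9.06%. The closest pair was on chromosome 18, where the 37dph-only peak from 19871514 to 19871679 ended 48 bp before a region open at all stages. On chromosome 22 the peak from 5213713 to 5213917 began 90 bp after one. In contrast, the region from 8842977 to 8843161 on the same chromosome had its nearest always-open region at 5357 bp and its nearest peak of any other stage at 5385 bp. Peaks alone in their neighbourhood and peaks beside older sites were thus both present among the strongest.

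The widest 37dph-only region was on chromosome 12 from 6570222 to 6571073, at 852 bp with a −log10 p of 13.3, and lay 468 bp from a region open at all stages. The next, on chromosome 6 from 6370986 to 6371697, measured 712 bp. It was weak, with a −log10 p of 8.13, and lay 23242 bp from such a region. The third, on chromosome 16 from 13721192 to 13721887, measured 696 bp with a −log10 p of 15.03.

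At the limit of the rule, membership turned on single base pairs. The member closest to a peak of another stage, on chromosome 7 from 310662 to 310859 (−log10 p 10.5), touched a 15dph peak that began at 310860 without sharing a base with it. Next came regions with a gap of 4 bp to a 3dpf peak, on chromosome 16 from 9199168 to 9199308 (−log10 p 14.5) and on chromosome 19 from 11967440 to 11967804 (18.7). Just outside the rule, a 37dph peak on chromosome 1 from 18823567 to 18823753 (−log10 p 5.41) shared 1 bp with a 15dph peak. Another on chromosome 21 from 6027959 to 6028102 (4.59) shared 2 bp with a 3dpf peak, as did one on chromosome 9 from 4100673 to 4100987 (6.19). Cases this close were few, but their number depended on the cut. A gap of at most 10 bp was found in 7 of the 5345 regions, and a largest overlap of at most 10 bp in 9 of the 37dph peaks left out. With a cut of 50 bp these counts were 152 and 53.

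A peak of an earlier stage lay within 5000 bp of 88.2% of the 37dph-only regions, and within 1000 bp of 42.1%. The median distance to the nearest peak of any other stage was 1355 bp (interquartile range 450 to 2975), and 26.7% (25.6 to 27.9) of the regions had one within 500 bp. The nearest such peak belonged to 3dpf for 61.8% of the regions, to 15dph for 24.0% and to 23dph for 14.2%, in the order of the lengths of the lists. Within 100 bp, 6.85% of the regions had a 3dpf peak, 5.91% a 15dph peak and 4.98% a 23dph peak. A 37dph peak that was shared with another stage lay within 100 bp of 266 regions, 4.98%. A peak beside another peak of the same list at such a distance can be a second summit of one accessible site, and the lists do not separate these cases.

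The other stage-only sets had peaks of other stages almost as near. The median distance to the nearest one was 1430 bp for 15dph-only and 1628 bp for 23dph-only regions, and 25.4% and 21.3% had one within 500 bp. The share with a peak of another stage within 100 bp was 9.06% (8.31 to 9.85) for 37dph-only regions, 7.75% (7.08 to 8.48) for 15dph-only and 6.54% (5.72 to 7.47) for 23dph-only. Most regions of each set thus had none so close.

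The distance to regions open at all stages differed more between the sets. The median distance to the nearest of the 28454 always-open regions was 5112 bp for 37dph-only regions (95% binomial interval of the median 4890 to 5358), 8695 bp for 15dph-only (8366 to 9078) and 7828 bp for 23dph-only (7466 to 8271). Within 1000 bp lay 17.7% (16.7 to 18.7) of the 37dph-only regions, against 12.1% (11.3 to 13.02) of the 15dph-only and 9.05% (8.09 to 10.1) of the 23dph-only ones. Within 5000 bp these shares were 49.6%, 33.5% and 35.1%. A region of one of these sets cannot overlap an always-open region by the rule, and this holds for all of them alike. For scale, always-open regions lay at a median of 3389 bp from the next always-open region.

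Regions of the juvenile list lay close to always-open regions more generally. Those open at 37dph and 1 or 2 other stages had a median distance of 4156 bp (3986 to 4313), while the corresponding regions of the 15dph list had 5944 bp and those of the 23dph list 6003 bp. Among the regions shared by 37dph and a single other stage, the medians were 4962 bp with 23dph (4527 to 5460), 3882 bp with 15dph and 3993 bp with 3dpf. The interval of the regions shared with 23dph overlapped that of the 37dph-only regions. At the other end of the range, the farthest 10% of the 37dph-only regions lay beyond 26610 bp. The 3 farthest were all on chromosome 13, at 341405, 333162 and 333049 bp, and 2 of them (24121129 to 24121263 and 24121276 to 24121376) lay only 12 bp apart. In the same order their −log10 p was 10.03, 4.76 and 3.34. Their global IDR was 0.0977, 0.0741 and 0.0798, near the limit of 0.1, so these were among the less reliable calls.

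**Figure D3:**
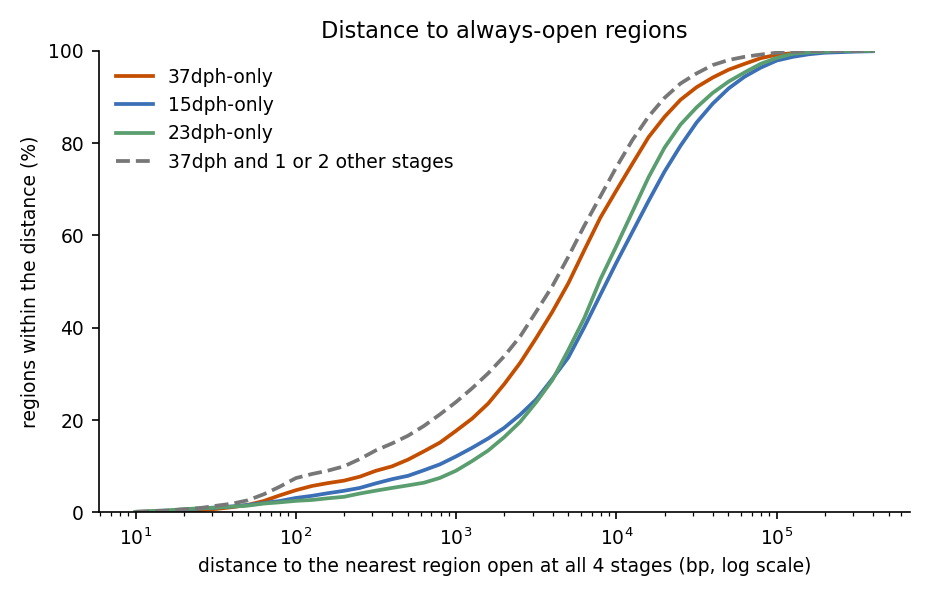
Cumulative share of regions (%) within a given distance in bp (log scale) of the nearest region open at all 4 stages, for the regions found only at 37dph, only at 15dph or only at 23dph and, as a dashed line, those open at 37dph and 1 or 2 other stages. The 37dph-only curve lies left of the other stage-only curves, with 49.6% of regions within 5000 bp against 33.5% and 35.1%.

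Among the 37dph-only regions, the narrow ones and, in a separate division, the strong ones lay nearest to always-open regions. When the regions were divided by width into 4 classes of about equal size, the median distance was 3049 bp in the narrowest (100 to 150 bp wide), 4243.5 bp and 5940 bp in the next, and 7184.5 bp in the widest (257 to 852 bp). The share within 1000 bp was 30.9% in the narrowest class and 8.16% in the widest. In 4 such classes by −log10 p, the median distance was 3400 bp in the strongest (3058 to 3683), 4742 bp and 5793.5 bp in the next, and 7066 bp in the weakest (6510 to 7585). The 299 regions in the stronger 50% of the 37dph list had a median of 2766.5 bp. The classes of strength differed little in width, with medians of 176 bp in the strongest and 187 bp in the weakest. The narrowest class was not the strongest, with a median −log10 p of 9.38 against 10.9, 9.94 and 9.89 in the successively wider ones. The rule leaves out peaks that overlap a peak of another stage, which a wide peak beside one does more readily. The part of this in the order by width was not tested.

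Because 37dph-only regions were narrower than those of the other sets, the distances were also compared at like widths. At 100 to 149 bp the median distance was 3047 bp for 37dph-only, 4993 bp for 15dph-only and 5355 bp for 23dph-only regions. At 150 to 199 bp it was 4563, 7059 and 7249 bp, and at 300 bp or more 6968.5, 10081 and 8985 bp, in the same order. The 37dph-only median was the lowest in each of the 5 width classes. Its interval, which covers counting error over regions only, did not overlap those of the other sets. Equal widths were unlike parts of the sets, since 100 to 149 bp held 24.9% of the 37dph-only, 8.28% of the 15dph-only and 8.62% of the 23dph-only regions. With each set divided by its own widths into 4 classes, the medians in the narrowest were 3049, 6302 and 6667 bp, and in the widest 7184.5, 10573 and 8746 bp. Regions shared by 37dph and other stages were not compared at like widths.

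**Figure D4:**
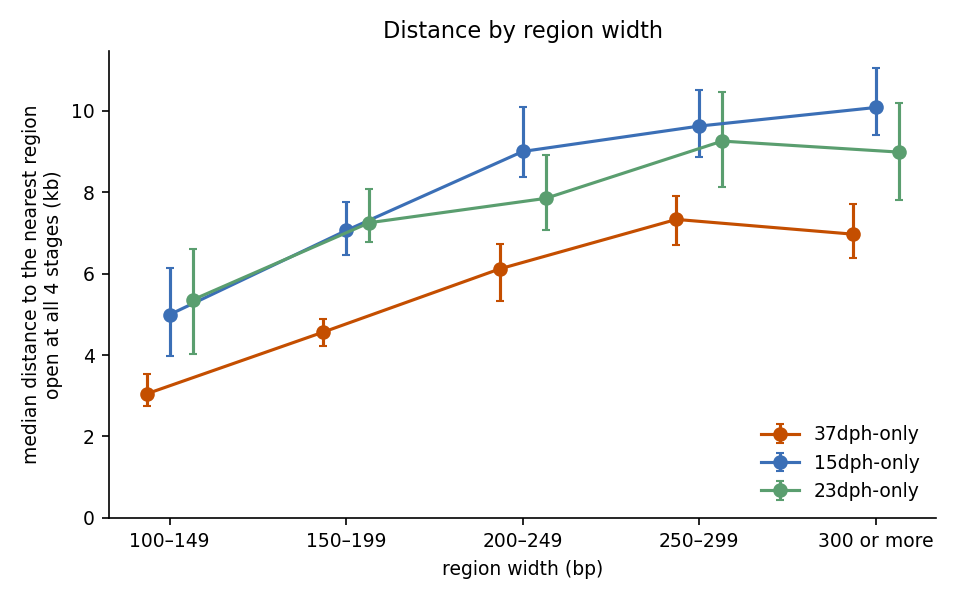
Median distance in kb to the nearest region open at all 4 stages, by region width in bp, for the 3 sets of regions found at a single stage after hatching; bars are 95% binomial intervals of the median. Distances increase with width in the narrower classes of each set, and the 37dph-only medians, 3047 bp at 100 to 149 bp and 6968.5 bp at 300 bp or more, lie below the others in every class.

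The regions next to a 37dph-only region along the chromosome gave a similar picture. Of the 10685 adjacent regions, 28.0% (27.1 to 28.9) were open at all stages, against 18.5% of the neighbours of 15dph-only and 20.6% of those of 23dph-only regions. In the whole atlas such regions were 24.9%. Embryo-only regions, open at 3dpf and at no later stage, which made up 38.0% of the atlas, were 31.8% (30.9 to 32.7) of the neighbours of 37dph-only regions, 40.5% of those of 15dph-only and 38.2% of those of 23dph-only regions.

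Neighbours of the same kind were somewhat frequent. Another 37dph-only region was 7.77% (7.28 to 8.29) of the neighbours, with a share in the atlas of 4.68%. For 15dph-only regions the values were 7.40% and 4.95%, and for 23dph-only regions 4.36% and 2.69%. In each of the 3 sets, therefore, regions had a neighbour of their own kind more often than that kind was found in the atlas as a whole. Peaks of the same list were joined only through a peak of another stage, so a site called as several peaks counts as neighbours of one kind. Of the 37dph-only regions, 298 had another within 500 bp, and the part of such cases was not tested. Regions open at 37dph of any kind, 37dph-only included, were 46.1% of the neighbours of 37dph-only regions and 38.6% of the atlas.

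Most 37dph-only regions nevertheless stood alone. The median distance to the next 37dph-only region was 25037 bp (interquartile range 8631 to 58629), and 4450 of the 5345 regions had none within 5000 bp. The other 895, 16.7% (15.8 to 17.8), formed 391 pairs, 35 groups of 3 and 2 groups of 4. The corresponding share was 13.9% (13.02 to 14.8) for the 15dph-only set, which is of similar size, and 8.75% for the smaller 23dph-only set. Part of the closest pairs were near-contiguous, since 200 regions had another within 100 bp. Regions with and without a neighbour in 5000 bp resembled each other, with median widths of 176 and 179 bp, median −log10 p of 9.89 and 10.03 and median distances to always-open regions of 4961 and 5126 bp.

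One of the groups of 4 was on chromosome 8 from 755620 to 760423, a span of 4804 bp that contained no region of any other kind. Its peaks were 150 to 231 bp wide with −log10 p of 8.13 to 15.0, and lay 9985 to 14639 bp from the nearest always-open region. The other group of 4 was on chromosome 22 from 11089496 to 11098355. Its peaks were 230 to 365 bp wide with −log10 p of 10.5 to 13.5, and they lay among other sites, since the span held 9 regions, 4 of them embryo-only. The strongest group of 3, on chromosome 9 from 18455788 to 18456909, packed its peaks into 1122 bp, and the nearest of them lay 48 bp from an always-open region. Its peaks had −log10 p of 15.1, 21.7 and 9.68.

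Runs of consecutive 37dph-only regions with no other region in between were short. There were 359 runs of 2, 24 of 3, 1 of 4 and 1 of 6, which held 800 regions, 15.0% of all. The run of 4 was the group on chromosome 8 described above. The run of 6 was on chromosome 2 from 16969343 to 16993286, over 23.9 kb, with no peak of an earlier stage between its regions. It was singled out as the longest of 4930 runs, single regions included. The strength and reproducibility of its peaks were not examined. The longest run was 4 for 15dph-only and 3 for 23dph-only regions.

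The regions were spread over all 22 numbered chromosomes, which held 5339 of them. Of the 16 regions open at 37dph on other sequences, 2 of them mitochondrial, 6 were 37dph-only, and none of these was mitochondrial. The density of the 37dph-only regions averaged 9.87 ± 1.35 regions per Mb (SD over 22 chromosomes), and was lowest on chromosome 5, at 6.80 per Mb, and highest on chromosome 16, at 11.9 per Mb. Density partly followed that of the other 37dph regions, with Pearson's r = 0.68 and Spearman's rho = 0.52 over the 22 chromosomes as a description, since both counts come from one list.

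Relative to the regions open at 37dph, the 37dph-only share was lowest on chromosome 5, at 10.4% (9.16 to 11.8, 210 of 2016), and highest on chromosome 16, at 14.5% (12.9 to 16.1, 268 of 1853). Against the share of 12.1% over all of them, the interval lay above it on 3 chromosomes, 2, 15 and 16, and below it on 2, chromosomes 4 and 5. The intervals of the other 17 included it. With 22 intervals set against one share, some can miss it by counting error alone. Chromosome 5 had the lowest 37dph-only share and the highest share of both 15dph-only regions, 12.1% of those open at 15dph, and 23dph-only regions, 7.77% of those open at 23dph. Across chromosomes the 37dph-only and 15dph-only shares showed almost no relation, with Pearson's r = 0.067 and Spearman's rho = 0.051 over 22 chromosomes, given as a description.

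**Figure D5:**
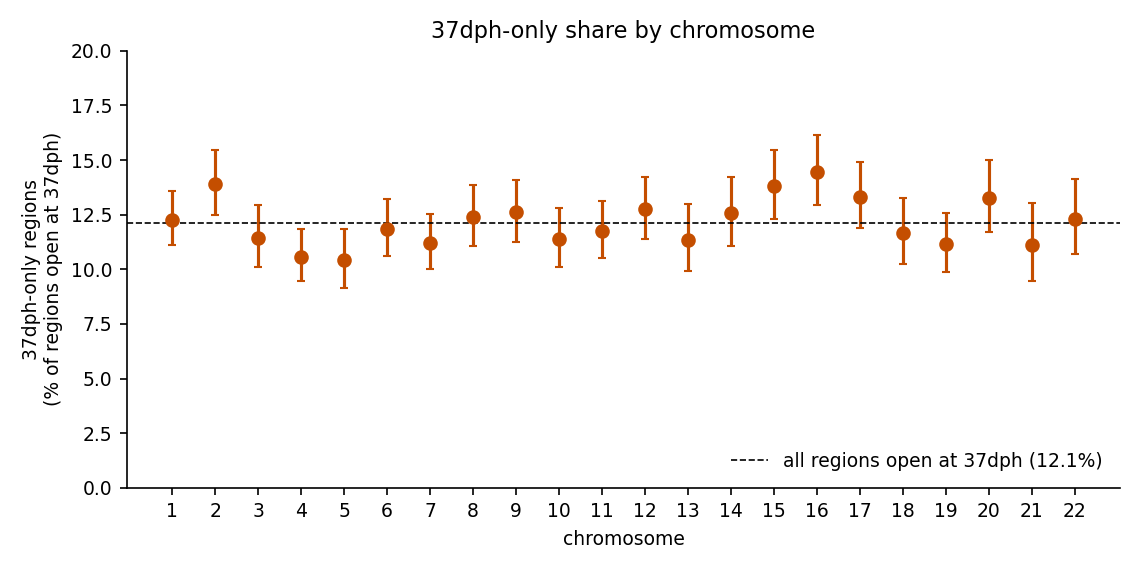
Share (%) of the regions open at 37dph that were 37dph-only on each numbered chromosome, with 95% Wilson intervals; the dashed line marks the share over all regions open at 37dph, 12.1%. The shares lie between 10.4% on chromosome 5 and 14.5% on chromosome 16.

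Along the chromosomes, the 37dph-only share was higher in the outermost part, with no steady gradient further in. In the outer 10% at either end, 1180 of 8552 regions open at 37dph were 37dph-only, 13.8% (13.1 to 14.5), compared with 4159 of 35474, 11.7% (11.4 to 12.1), in the rest. Inward of the outer 10%, successive bands of 10% up to the middle had shares of 11.97%, 11.87%, 11.49% and 11.64%. The share was higher at the ends than in the rest on 15 of the 22 chromosomes. By another measure, the part of each whole set that lay there, the other stage-only sets had lower values. The outer 10% held 22.1% (21.0 to 23.2) of the 37dph-only regions, 17.3% (16.3 to 18.3) of the 15dph-only and 17.9% (16.6 to 19.3) of the 23dph-only ones. Of the other regions open at 37dph it held 19.1%. The matching values for the other regions of the 15dph and 23dph lists were not computed. Whether the 15dph-only and 23dph-only regions lean to the ends relative to their own lists is therefore not known.

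In windows of 1 Mb the regions numbered a median of 9 (interquartile range 6 to 13), and 9 of the 534 windows held none. The fullest windows were the first and the second Mb of chromosome 16, with 28 regions each, 19.9% and 22.05% of the 141 and 127 regions open there at 37dph. Next came chromosome 22 from 8000001 to 9000000 with 27, 17.6% of the 153 open there at 37dph. This window also contains 2 of the 10 strongest regions. On chromosome 15 from 22000001 to 23000000, 25 of 87 regions open at 37dph were 37dph-only, 28.7%, the highest share among the 10 fullest windows. Over all regions open at 37dph the share was 12.1%. The fullest windows were picked by their counts of 37dph-only regions, and this choice favours high shares. Over the 534 windows these counts partly followed those of the other 37dph regions (Pearson's r = 0.69, Spearman's rho = 0.71, as a description).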

How the data were processed

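The authors aligned paired reads to the assembly ASM1334776v1 with Bowtie2, moved read ends to the Tn5 cut site, used short fragments only, ran MACS2 on every replicate and kept the peaks reproducible between replicates by IDR. The deposited lists, 1 per stage, give per peak a fold enrichment and a −log10 p as the authors' caller wrote them, an IDR score capped at 1000, and a score that is the −log10 of the global IDR, which is at most 0.1. The list attached to the 23dph samples carries another day number in its name. Which reads gave the fold values, pooled or of 1 replicate, is not given in the sources used here. The lists carry no read totals. The study tabulates mapped reads for each library, with the highest totals in the juvenile libraries, and no correction for depth was made here. Depth affects how many peaks are called and how wide they are.

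Peaks of different stages were linked by an overlap of at least 1 bp. No list held overlapping peaks. Distances are the bp between the ends of regions. Chromosome lengths are the furthest peak ends. Linking and distances were tested on simulated intervals against a search over all pairs. Shares carry 95% Wilson intervals, and medians exact binomial intervals. The named regions are the 10 with the highest −log10 p, the 3 widest, the 3 farthest from an always-open region, the 3 largest groups, the longest run and the cases at the limit of the rule. The regions and the comparisons were chosen with earlier results of these data known, and the longest run, the width classes, the chromosome ends and the windows were added after values had been seen. A gene table of another assembly was not used. Scripts ran in Python 3.11.15 with pandas 2.3.3, numpy 2.4.6 and scipy 1.17.1, and figures were drawn with matplotlib 3.10.9.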

Additional observations from a re-analysis of the deposited data

How the results depend on the processing

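The number of 37dph-only regions, 5345, depended on which peaks were set against which. It was 2324 in the top 50% of each list, 8224 with lists shortened to equal length, 2939 with a global IDR of at most 0.01 in every list, 1126 with that limit in the 37dph list only, and 8115 with an overlap of 50% of both peaks. The limit on the 37dph list alone removes regions by construction. The 37dph list is the shortest, so equal lengths cut only the other lists, and the count can only rise. An overlap of 50% keeps fewer links between peaks and can also only raise it. Gaps of up to 100 or 500 bp add links and can only lower it. For the top 50% and the strict IDR in every list, which cut all lists, the cause was not tested. The count stayed within 1.5 times of 5345 with summits within 100 bp, gaps of up to 100 or 500 bp, or numbered chromosomes only, and the last setting moved none of the results.

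In the order top 50%, equal lengths, strict IDR in every list, strict IDR at 37dph only, 50% overlap, summits, 100 bp gaps and 500 bp gaps, the share among the regions open at 37dph was 10.3%, 18.6%, 9.74%, 3.73%, 17.6%, 15.99%, 11.7% and 10.4%. In the same order the share with another such region within 5000 bp was 11.1%, 22.2%, 12.2%, 6.48%, 27.7%, 20.6%, 15.6% and 13.1%. That share was 7.11% within 1000 bp, 27.3% within 10000 bp and 70.7% within 50000 bp, which larger distances raise by construction.

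The median width of 179 bp moved little, to 176 bp with equal lengths, 171 bp and 170 bp with the strict IDR limits, 188 bp with summits, and 183 bp and 186 bp with gaps. The median distance to an always-open region, 5112 bp, moved to 5896 bp with equal lengths, 4249.5 bp and 3712 bp with the strict IDR limits, 4450 bp with summits, and 5493 bp and 5881 bp with gaps. In each of the 9 settings it was below the medians of the 15dph-only and 23dph-only regions. No paired analysis was possible because both replicates of a stage share 1 list, and for the same reason no replicate could be left out. Depth, which was highest in the juvenile libraries and was not equalised, limits the comparison of counts and widths between stages. Promoter, GC and motif alternatives were not run.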
